A study of Mus musculus with 8 samples.

Results

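The genes of the phagocyte NADPH oxidase, the superoxide dismutases and catalase were followed in mouse cells exposed to auranofin, an oral gold compound used in rheumatoid arthritis that inhibits thioredoxin reductase. The members were taken by gene symbol from 2 deposited expression tables. They are Cybb, Cyba, Ncf1 and Ncf4 of the phagocyte oxidase, Nox4 of the non-phagocytic oxidases, Sod1, Sod2 and Sod3, and Cat. All 9 were listed in both tables, among 18645 genes in the table of activated hepatic stellate cells (AHSC) and 17408 in the table of bone marrow-derived macrophages (BMDM).

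Each experiment had 2 control and 2 auranofin libraries of C57BL/6 mouse cells, made with a stranded mRNA kit. The AHSC groups were primary liver cells, labelled untreated and called vehicle here, and the same cells with 0.03 µM auranofin, for 12 h by the study. Stellate cells were prepared from perfused liver by density gradient centrifugation, with no sorting step described, and the age of these mice is not given in the sources used here. The BMDM groups came from bone marrow of 8-week-old male mice grown in macrophage colony-stimulating factor. Every BMDM library was given ATP at 1 mM and LPS at 100 ng/mL, so there was no unstimulated BMDM group. The treated BMDM group also received auranofin, at 0.1 µM by the labels and 0.3 µM by the study's text, for 1 h. Because the labels do not say whether replicates were separate cultures or animals, p-values measure the spread between these libraries, which may be technical.

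The phagocyte oxidase passes electrons from NADPH to oxygen and makes superoxide. Its membrane part pairs the catalytic subunit gp91phox (Cybb) with p22phox (Cyba), and cytosolic subunits such as p47phox (Ncf1) and p40phox (Ncf4) join it on activation. Superoxide dismutases turn superoxide into hydrogen peroxide in the cytosol (Sod1), in mitochondria (Sod2) and outside the cell (Sod3), and catalase in peroxisomes breaks hydrogen peroxide down. In fibrotic liver, macrophages are among the cells that use the phagocyte oxidase. NOX4 is known from stellate cells and myofibroblasts, where it makes mainly hydrogen peroxide and needs no cytosolic subunit.

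Expression is given in FPKM, fragments of a gene scaled to the length of its transcript and to the size of the library. Auranofin and vehicle were compared within each table with limma on log2(FPKM + 1), so fold changes understate those of low genes. A gene was tested when its mean over the 4 libraries was at least 1 FPKM, and it was called at a Benjamini-Hochberg adjusted p under 0.05 over all genes tested. All 9 members were tested in AHSC and 7 of 9 in BMDM. Estimated depth ran from 27520000 to 39350000 fragments a library. With 2 libraries in each group the smallest two-sided p that exact permutation allows is 0.33, so no share or ratio could pass 0.05 by that test.

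The labelled cell types were checked against marker genes. The AHSC libraries expressed stellate cell genes, with Col1a1 at 1001 and 1075 FPKM and Acta2 at 956 and 965 FPKM in vehicle, but also macrophage genes, with Lyz2 at 5519 and 5554 FPKM and Cd68 at 645 and 670 FPKM. Summed over 15 macrophage markers, vehicle libraries held 8240 to 8316 FPKM and auranofin libraries 8137 and 8124 FPKM. The phagocyte oxidase transcripts of AHSC were therefore measured in libraries that also contained macrophage transcripts. In such bulk libraries, fewer cells of a type and less RNA per cell cannot be told apart. Of the other lists, 15 stellate markers summed to 4415 to 4548 FPKM in vehicle and to 3839 and 3939 FPKM with auranofin, and 10 endothelial markers, led by Cdh5 and Egfl7, summed to 282 to 292 FPKM and to 299 and 282 FPKM. All 9 hepatocyte markers in the table, led by Ass1 and Alb, had means under 1 FPKM, as did all 4 B and T cell markers, led by Cd79b and Cd79a. Neutrophil markers, led by S100a9 and S100a8, summed to 8.84 and 19.9 FPKM in vehicle, 8.59 FPKM in the first auranofin library and 79.4 FPKM in the second. Of these 10 markers, 6 had means under 1 FPKM. Among these lists, limma called Clec4f higher, 1 of 14 macrophage markers tested. Acta2, 1 of 15 stellate markers tested, and Stab2 and Clec4g, 2 of 10 endothelial markers tested, were called lower. Of all genes tested, 2.33% were called and 1.24% were called higher.

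In BMDM, macrophage markers, led by Lyz2 and Cd68, summed to 7987 to 8119 FPKM in vehicle and to 8769 and 8129 FPKM with auranofin, with the Kupffer cell genes Clec4f, Vsig4 and Timd4 under 1 FPKM. Of 14 stellate markers 10, of 10 endothelial markers 9 and of 9 hepatocyte markers 8 had means under 1 FPKM, as did all 4 B and T cell markers. The highest of these lists were Lhx2 and Hgf, Kdr and Stab2, Alb and Ass1, and Cd79b and Cd79a, respectively. Neutrophil markers, led by S100a9 and S100a8, summed to 207 and 213 FPKM in vehicle and to 278 and 280 FPKM with auranofin. Of these 10 markers, 4 had means under 1 FPKM. S100a9 was at 103 and 108 FPKM in vehicle and at 133 and 140 FPKM with auranofin. S100a8 was at 54.9 and 58.5 FPKM, then at 85.5 and 81.0 FPKM. Auranofin replicate 1 of BMDM stood apart: 2146 genes (23.2% of those tested) lay at least 1.5-fold from the vehicle mean, against 61 (0.661%) in replicate 2 and 90 (0.975%) between the vehicle libraries. The median gene of that library was 0.18 above the vehicle mean on the log2 scale. Results in BMDM are given for both libraries and for each one.

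To show the sequence in front of the members that rose in AHSC, the 250 bases before the start sites of Cat and Sod1 are given with those of Sod2, a dismutase that was not called. They were copied from RefSeq on GRCm38.p6 and read 5′ to 3′ on the gene's strand: Cat at chr2:103485154-103485403 (minus strand), Sod1 at chr16:90220512-90220761 (plus strand) and Sod2 at chr17:13007589-13007838 (plus strand). Capitals mark the PU.1 letters in Cat and Sod2, the antioxidant response element (ARE) letters in Sod1, and, second in Sod2, the NF-kB letters.
Cat: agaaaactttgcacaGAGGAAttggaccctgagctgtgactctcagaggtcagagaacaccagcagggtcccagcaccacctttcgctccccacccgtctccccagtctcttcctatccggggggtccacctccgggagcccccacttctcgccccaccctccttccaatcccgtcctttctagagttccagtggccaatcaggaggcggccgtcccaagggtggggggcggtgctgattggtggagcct
Sod1: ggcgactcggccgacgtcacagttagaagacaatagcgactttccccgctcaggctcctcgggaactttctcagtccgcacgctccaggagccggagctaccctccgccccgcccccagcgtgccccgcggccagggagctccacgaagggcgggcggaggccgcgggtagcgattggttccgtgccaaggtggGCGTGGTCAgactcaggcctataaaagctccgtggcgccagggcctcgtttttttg
Sod2: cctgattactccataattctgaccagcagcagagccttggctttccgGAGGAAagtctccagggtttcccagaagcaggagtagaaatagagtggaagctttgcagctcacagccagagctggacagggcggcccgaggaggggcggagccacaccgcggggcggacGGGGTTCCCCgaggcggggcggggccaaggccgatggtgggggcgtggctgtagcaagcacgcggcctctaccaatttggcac

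Windows of 300 bases, 250 before and 50 after the start site, were found for 7 of 9 members, without Ncf4 and Sod3. Both strands were searched, and positions count from the start site as 0. The ARE core TGANNNNGC was found in Sod1 alone among the 7, on the minus strand at -56 to -48, and 41.3% of all 32851 windows held it. The NF-kB motif was found in Sod2 alone, at -83 to -74, where the same letters match on both strands, against 4.51% of all windows. Letters of the myeloid factor PU.1 (GAGGAA, 28.3% of all windows) were found in Cat, Cybb and Sod2. CCAAT (37.4%) was found in Cat, where there were 4 matches, and in Cybb, Sod1 and Sod2. The first of these in Cat shares a base with the PU.1 letters. TATAAA (13.6%) was found in Sod1, and the GC box GGGCGG (35.7%) in every member window except that of Cybb. These matches describe the letters in the window and do not show that a factor binds.

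In AHSC, Cat and Sod1 rose with auranofin. They encode the scavengers of peroxide and of cytosolic superoxide. Catalase mRNA approached 2-fold of its vehicle level, and Sod1 mRNA rose less, 1.24-fold. These were the 2 of 9 members called, against 2.33% of all genes tested, and both were higher, a direction called for 1.24% of all genes. With the thresholds drawn in the study's plots (1.5-fold or more, and p under 0.05 before adjustment), Cat alone was called, and 0.428% of all genes passed in that direction. No oxidase gene was called. The median log2 fold change was 0.08 over the members, with 5 higher and 4 lower, and 0.0049 over all genes tested.

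**Figure D1:**
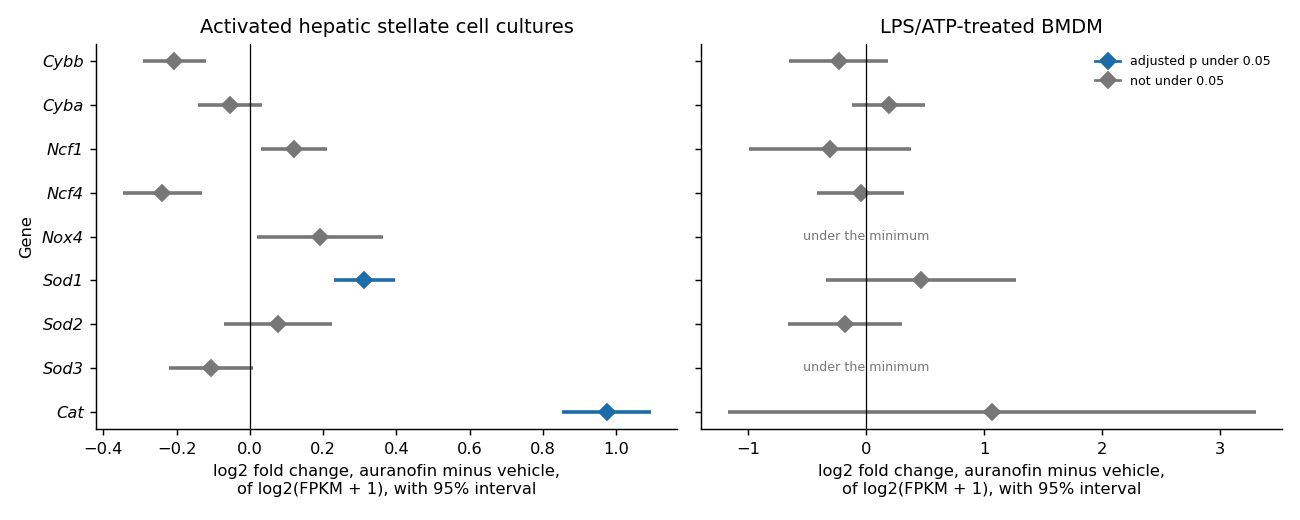
Log2 fold change of each member, auranofin minus vehicle, on the log2(FPKM + 1) scale (x axis, a different range in each panel) with its 95% interval from limma, for AHSC (left) and BMDM (right). Cat (0.97) and Sod1 (0.31) in AHSC are drawn in blue as the only members with an adjusted p under 0.05, and every BMDM interval spans 0.

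Cat was at 121 and 111 FPKM in the AHSC vehicle libraries and at 232 and 226 FPKM in the auranofin libraries. Both treated libraries lay far above both vehicle libraries. The mean rose from 116 ± 7.29 to 229 ± 3.66 FPKM (SD, n = 2). On the log2 scale this was 0.97 ± 0.05 (SE), or 1.96-fold (95% interval of the log2 value 0.85 to 1.10; limma adjusted p = 0.00176). A log2 fold change this high or higher was seen in 0.214% of all genes tested. Depth did not limit this value, since the libraries held an estimated 9578 to 23281 Cat fragments.

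Sod1 was at 361 and 355 FPKM in vehicle and at 451 and 438 FPKM with auranofin, so the groups did not overlap. Its mean rose from 358 ± 4.82 to 445 ± 9.36 FPKM (SD, n = 2). On the log2 scale this was 0.31 ± 0.03 (SE), or the 1.24-fold given above (limma adjusted p = 0.0140). This call was lost without the filter on low values (adjusted p = 0.0758), without the variance trend (0.0638) and without auranofin replicate 1 (0.0591), while the direction was kept. The mitochondrial Sod2 was not called. It was at 22.5 and 20.7 FPKM in vehicle and at 23.7 and 22.0 FPKM with auranofin, and the groups overlapped (log2 fold change 0.08 ± 0.06, adjusted p = 0.562). The extracellular Sod3 was at 12.4 and 11.9 FPKM in vehicle and at 11.4 and 11.03 FPKM with auranofin. Its treated libraries were both lower, with a log2 fold change of -0.11 ± 0.05 that did not pass the test (adjusted p = 0.307).

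By FPKM, Sod1 made up most of the superoxide dismutase mRNA of AHSC. FPKM is scaled to transcript length, and 1 transcript was listed for each gene (641 bases for Sod1, 5861 for Sod2 and 3738 for Sod3). The shares rest on these lengths, and other lengths were not tested. Its share of the summed FPKM of the 3 genes was 91.2% and 91.6% in vehicle and 92.8% and 93.0% with auranofin. Sod2 held 5.68% and 5.34% in vehicle and 4.87% and 4.66% with auranofin, and Sod3 held 3.13% and 3.08%, then 2.34% and 2.34%. The shares of the groups did not overlap, and the mean of Sod1 differed by 1.51 percentage points (exact permutation test, two-sided p = 0.33, the smallest possible). The summed FPKM of the 3 genes was 396 and 387 in vehicle and 487 and 471 with auranofin.

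The membrane subunits were abundant in AHSC, and neither passed the test. Cybb was at 146 and 141 FPKM in vehicle and at 124 and 125 FPKM with auranofin, so both treated libraries were lower. Its log2 fold change was -0.21 ± 0.03, or 0.866-fold, and the adjusted p of 0.0503 lay next to the threshold. Cybb was called with a mean of at least 5 FPKM (limma adjusted p = 0.0396), quantile normalization (0.0289) and median centring (0.0398). It was not called without the filter on low values (limma adjusted p = 0.123) or without the variance trend (0.125). With the replicate block (0.0608) and a pseudocount of 0.1 (0.0504) it was not called either. With 1 library left out, its log2 fold change ran from -0.23 to -0.18. Cyba, its partner, was at 401 and 415 FPKM in vehicle and at 398 and 387 FPKM with auranofin (log2 fold change -0.05 ± 0.04, adjusted p = 0.478). The ratio of Cybb to Cyba FPKM within a library was 0.365 and 0.340 in vehicle and 0.311 and 0.324 with auranofin, 2 ranges that did not overlap (exact permutation test, two-sided p = 0.33).

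The cytosolic subunits of AHSC lay on opposite sides of vehicle with auranofin, and neither passed the test. Ncf1, the p47phox organizer, was at 37.2 and 37.7 FPKM in vehicle and at 41.3 and 40.3 FPKM with auranofin (log2 fold change 0.12 ± 0.04, adjusted p = 0.175). Ncf4, p40phox, was at 32.0 and 30.7 FPKM in vehicle and at 27.0 and 25.8 FPKM with auranofin (-0.24 ± 0.04, adjusted p = 0.0598). Treated libraries lay above both vehicle libraries for Ncf1 and below both for Ncf4. Ncf4 was called with a mean of at least 5 FPKM (limma adjusted p = 0.0471). It was not called without the filter on low values (limma adjusted p = 0.141) or without the variance trend (0.115). Nor was it called with the replicate block (0.0529), quantile normalization (0.0578), median centring (0.0508) or a pseudocount of 0.1 (0.0597). With 1 library left out, its log2 fold change ran from -0.27 to -0.21. Against vehicle, Cybb and Ncf4 were at -0.22 and -0.21 on the log2 scale in auranofin replicate 1 and at -0.20 and -0.27 in replicate 2, the library with the high neutrophil marker sum. The part of neutrophil transcripts in these values was not tested.

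Nox4 was the lowest member in AHSC, at 1.67 and 1.74 FPKM in vehicle and 2.06 and 2.11 FPKM with auranofin. Both treated libraries were higher, with a log2 fold change of 0.19 ± 0.07 that did not pass the test (adjusted p = 0.243). The libraries held an estimated 197 to 311 Nox4 fragments. Counted over the members, auranofin libraries lay above both vehicle libraries for Ncf1, Nox4, Sod1 and Cat (4 of 9, against 26.2% of all genes tested) and below both for Cybb, Cyba, Ncf4 and Sod3 (4 of 9, against 23.9%).

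**Figure D2:**
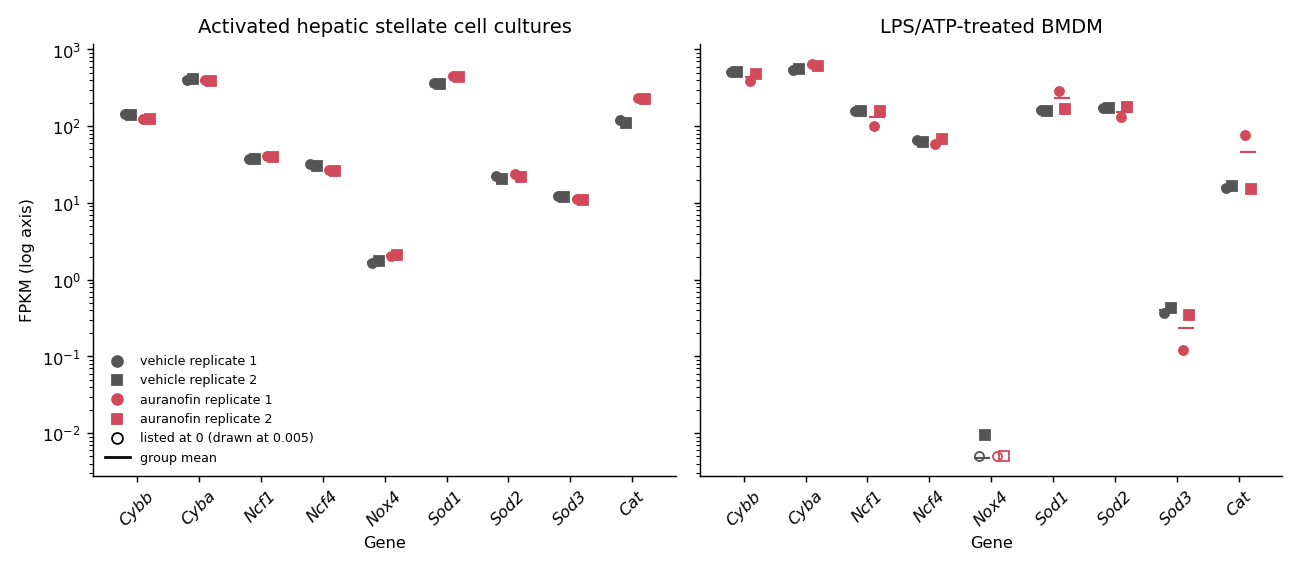
FPKM of each member on a log axis in the 8 libraries, AHSC left and BMDM right, with vehicle in grey, auranofin in red, circles for replicate 1, squares for replicate 2 and a short line at the mean of a group. Cat is 232 and 226 FPKM in the AHSC auranofin libraries against 121 and 111 FPKM in vehicle, and in BMDM only auranofin replicate 1 (77.4 FPKM) departs from 15.4 to 16.7 FPKM, while Nox4 is listed at 0 in 3 of 4 BMDM libraries.

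In BMDM, auranofin replicate 1 departed from vehicle in both the scavengers and the oxidase subunits, while replicate 2 stayed closer to vehicle. In replicate 1, Cat, Sod1 and Cyba lay above both vehicle libraries, and Sod2, Cybb, Ncf1 and Ncf4 lay below both. Of all genes in that library, 0.574% lay as high as Cat, 7.78% as high as Sod1 and 41.6% as high as Cyba. The share lying as low was 7.05% for Ncf1, 13.1% for Cybb, 13.4% for Sod2 and 22.2% for Ncf4. With both libraries, limma called 0 of 7 members, and 0.0108% of all genes tested (1 of 9232). At an unadjusted p under 0.05 it was also 0 of 7, against 0.531% of all genes. The median log2 fold change was -0.05 over the 7 members, with 3 higher and 4 lower, and 0.089 over all genes. Auranofin libraries lay above both vehicle libraries for Cyba and Sod1 (2 of 7, against 26.3% of all genes) and below both for Cybb (1 of 7, against 12.6%).

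Cat was at 15.6 and 16.7 FPKM in the BMDM vehicle libraries and at 77.4 and 15.4 FPKM with auranofin. Replicate 1 lay 2.19 above the vehicle mean on the log2(FPKM + 1) scale (4.57-fold on that scale). Replicate 2 lay below both vehicle libraries (-0.07). Over both libraries the log2 fold change was 1.06 ± 0.81 (SE), with an adjusted p of 0.721. A difference as high as that of Cat in replicate 1 was seen in 0.574% of all genes in that library.

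Sod1 was at 162 and 160 FPKM in vehicle and at 290 and 170 FPKM with auranofin. Both treated libraries were higher, replicate 1 by 0.84 and replicate 2 by 0.08 on the log2 scale, and the log2 fold change over both was 0.46 ± 0.29 (adjusted p = 0.721). Sod2, which LPS is known to induce in macrophages, was at 174 and 173 FPKM in vehicle and at 133 and 176 FPKM with auranofin (log2 fold change -0.18 ± 0.17, adjusted p = 0.721). Replicate 1 was thus low for Sod2 and high for Sod1, and replicate 2 lay slightly above vehicle for both. Sod3 was under the expression minimum, at 0.370 and 0.426 FPKM in vehicle and 0.123 and 0.347 FPKM with auranofin, or an estimated 41.2, 43.8, 16.1 and 44.8 fragments.

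By FPKM, Sod1 and Sod2 shared the superoxide dismutase mRNA of vehicle BMDM almost evenly. This rests on the transcript lengths given above, since vehicle replicate 1 held an estimated 30395 Sod2 fragments and 3099 Sod1 fragments. The Sod1 share was 48.2% and 48.1% in vehicle, 68.6% in auranofin replicate 1 and 49.1% in replicate 2. The Sod2 share was 51.7% and 51.8% in vehicle, 31.4% in replicate 1 and 50.8% in replicate 2. The order of the pair was thus turned in auranofin replicate 1 and kept in replicate 2. The mean Sod1 share was 10.7 percentage points higher with auranofin (exact permutation test, two-sided p = 0.33) and 0.950 points higher without replicate 1. The summed FPKM of the 3 genes was 337 and 333 in vehicle and 423 and 346 with auranofin.

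**Figure D3:**
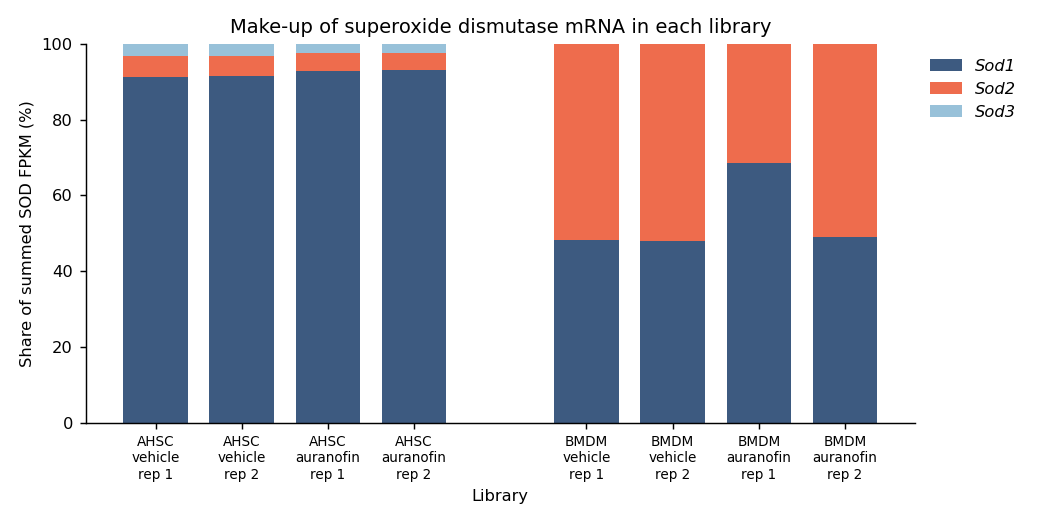
Share of Sod1, Sod2 and Sod3 in the summed superoxide dismutase FPKM of each library (y axis, percent), 1 bar for each of the 8 libraries. Sod1 holds 91.2% to 93.0% in AHSC and 48.1% to 49.1% in BMDM except auranofin replicate 1, where it holds 68.6%.

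Of the membrane subunits of BMDM, Cybb was lower and Cyba higher in both auranofin libraries, and neither passed the test. Cybb was at 510 and 509 FPKM in vehicle and at 388 and 483 FPKM with auranofin, both lower (log2 fold change -0.23 ± 0.15, adjusted p = 0.721). Cyba was at 545 and 557 FPKM in vehicle and at 654 and 604 FPKM with auranofin, both higher (0.19 ± 0.11, adjusted p = 0.721). The Cybb to Cyba ratio of FPKM was 0.937 and 0.914 in vehicle and 0.594 and 0.800 with auranofin. Both treated libraries had a lower ratio than both vehicle libraries (exact permutation test, two-sided p = 0.33), as in AHSC.

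Among the cytosolic subunits of BMDM, Ncf1 was at 156 and 159 FPKM in vehicle and at 102 and 159 FPKM with auranofin (log2 fold change -0.31 ± 0.25, adjusted p = 0.721). Ncf4 was at 67.0 and 62.9 FPKM in vehicle and at 58.0 and 68.0 FPKM with auranofin (-0.05 ± 0.13, adjusted p = 0.866). For both genes replicate 1 was below the vehicle libraries and replicate 2 was not. The neutrophil marker sum was higher in both auranofin libraries of BMDM, and its part in these oxidase values was not tested. Nox4 was listed at 0 in 3 libraries and at 0.00945 FPKM, about 1 fragment, in vehicle replicate 2. A count of 0 allows up to 0.0229 to 0.0269 FPKM in those libraries (3 fragments, counting error only), so Nox4 was not detectable above that level in them.

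When auranofin replicate 1 alone was set against the vehicle libraries, 6 of 7 members were called, all but Ncf4, as were 65.2% of all genes tested. In that fit the adjusted p was 6.3e-05 for Cat, 0.000134 for Sod1, 0.000288 for Ncf1, 0.00073 for Cybb, 0.00108 for Sod2 and 0.00358 for Cyba. The test takes the lone library to vary as the vehicle libraries did, and the member calls are read against a background in which most genes were called. Without replicate 1, no member was called, and Cat, Ncf1, Ncf4 and Sod2 changed direction, to log2 fold changes of -0.07, 0.01, 0.07 and 0.02.

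**Figure D4:**
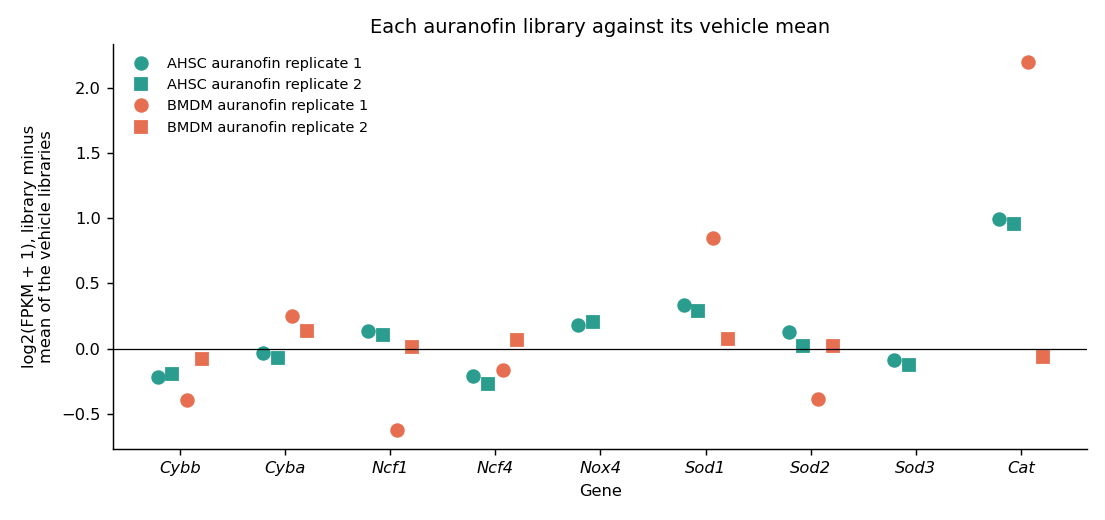
Difference of each auranofin library from the mean of its vehicle libraries on the log2(FPKM + 1) scale (y axis), for the members tested, with AHSC in green, BMDM in orange, circles for replicate 1 and squares for replicate 2. The AHSC replicates lie close together for every member, whereas in BMDM Cat is 2.19 in replicate 1 and -0.07 in replicate 2.

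The genes that assist the oxidase were read from a list of 16 partners and other NADPH oxidases. In AHSC 8 were tested, 2 were called higher and 0 were called lower. Of all genes, 2.33% were called and 1.24% were called higher. Auranofin libraries lay above both vehicle libraries for 4 of the 8 (26.2% of all genes) and below both for 3 (23.9%). The median log2 fold change was 0.02 over the 8, with 4 higher and 4 lower, and 0.0049 over all genes. Hvcn1, the proton channel that balances charge while the oxidase works, was at 26.4 and 25.1 FPKM in vehicle and at 34.7 and 34.3 FPKM with auranofin (log2 fold change 0.41 ± 0.04, adjusted p = 0.0116). Prkcb, a protein kinase C that can phosphorylate p47phox, was at 14.5 and 16.2 FPKM in vehicle and at 19.9 and 20.6 FPKM with auranofin (0.38 ± 0.06, adjusted p = 0.0434). Both genes were higher in both treated libraries, although the call of Hvcn1 was lost without the filter on low values (adjusted p = 0.0538) and that of Prkcb was lost when either auranofin library was left out (0.0958 and 0.102), without the filter (0.138), without the variance trend (0.0897) and with quantile normalization (0.0698). In BMDM 9 were tested and 0 were called, also at an unadjusted p under 0.05, with a median of -0.02 against 0.089 over all genes. The largest differences were those of Hvcn1, at 22.2 and 22.8 FPKM in vehicle and 65.3 and 21.6 FPKM with auranofin, and of Nox1, an oxidase best known from colon epithelium, at 3.19 and 3.66 FPKM in vehicle and 0.931 and 3.44 FPKM with auranofin. In both genes replicate 1 made the difference and replicate 2 stayed near or within the vehicle values.

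Of 10 genes for other oxidant sources, 7 were tested in AHSC. Of these, 1 was called higher and 0 were called lower, against 1.24% of all genes called higher. Of the 7, 6 were higher and 1 lower, with a median of 0.12 against 0.0049 over all genes. The one called was Aox1, aldehyde oxidase, at 3.46 and 3.09 FPKM in vehicle and 5.16 and 5.24 FPKM with auranofin (log2 fold change 0.54 ± 0.07, adjusted p = 0.0212). Its call was lost when either auranofin library was left out (adjusted p = 0.0567 and 0.0552) and without the filter on low values (0.103). In BMDM 5 were tested and 0 were called by limma, 0 also at an unadjusted p under 0.05, with a median of 0.30 against 0.089 over all genes. Nos2, the inducible nitric oxide synthase, was at 295 and 300 FPKM in vehicle and at 91.2 and 289 FPKM with auranofin (-0.87 ± 0.59, adjusted p = 0.721). Ero1l, which makes peroxide while it oxidizes proteins in the endoplasmic reticulum, was at 12.8 and 12.7 FPKM in vehicle and at 27.1 and 12.5 FPKM with auranofin (0.50 ± 0.39, adjusted p = 0.721). On the log2 scale Nos2 differed from vehicle by -1.70 in replicate 1 and -0.04 in replicate 2, and Ero1l by 1.03 and -0.03. In both genes replicate 1 made most of the difference.

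Of 6 partners of the dismutases and catalase (the copper chaperones Ccs and Atox1, the copper importer Slc31a1 and the peroxisomal import factors Pex5, Pex13 and Pex14), 0 were called by limma in either table, and 0 had an unadjusted p under 0.05. Their median log2 fold change was 0.05 in AHSC (0.0049 over all genes), with 5 higher and 1 lower, and 0.18 in BMDM (0.089 over all genes), with 6 higher. Pex5, the receptor that carries proteins such as catalase into peroxisomes, was at 17.3 and 11.3 FPKM in vehicle and 18.7 and 16.9 FPKM with auranofin in AHSC. Its vehicle libraries were the farther apart, and the groups overlapped (log2 fold change 0.33 ± 0.18, adjusted p = 0.409). Pex13 was at 6.35 and 5.80 FPKM in vehicle and 6.58 and 6.40 FPKM with auranofin in AHSC. In BMDM the largest differences were those of Pex5, at 6.62 and 6.88 FPKM in vehicle and 11.9 and 6.55 FPKM with auranofin, and Atox1, at 117 and 131 FPKM in vehicle and 172 and 119 FPKM with auranofin. Replicate 1 was again the high library, and replicate 2 lay below or within the vehicle values.

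The order of vehicle levels differed between the tables, which were normalized separately and are set side by side without a test. In AHSC it ran Cyba (408 FPKM), Sod1 (358), Cybb (144), Cat (116), Ncf1 (37.4), Ncf4 (31.3), Sod2 (21.6), Sod3 (12.2) and Nox4 (1.70 FPKM). In LPS/ATP-treated BMDM it ran Cyba (551 FPKM), Cybb (510), Sod2 (173), Sod1 (161), Ncf1 (158), Ncf4 (65.0), Cat (16.1), Sod3 (0.398) and Nox4 (0.00473 FPKM). No neighbours in either order overlapped between their vehicle libraries, although Sod1 and Ncf1 of BMDM lay within a few FPKM of each other. The FPKM values were higher in BMDM for the 4 phagocyte oxidase subunits and Sod2, and higher in AHSC for Cat, Sod1, Sod3 and Nox4.

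For members that differed by 1.5-fold or more between libraries of 1 table, the most similar genes were sought among 5515 genes whose mean reached 5 FPKM in both tables. Likeness was the root mean square difference of log2 values over the 8 libraries, each taken from its own table's mean. The libraries share their treatments, and auranofin replicate 1 of BMDM carries much of the pattern. For Cat the nearest were Prdx1 (0.0563), a peroxiredoxin that also removes peroxide, Slc48a1 (0.0914), a heme transporter, and Cyb5a (0.143), cytochrome b5. Prdx1 was at 1062 and 986 FPKM in AHSC vehicle and 2113 and 2007 FPKM with auranofin, and in BMDM at 687 and 654 FPKM in vehicle and 3075 and 695 FPKM with auranofin. Prdx1 was high in both AHSC auranofin libraries and in BMDM replicate 1 alone, a likeness to Cat that the search itself selected for. For Sod1 the nearest were Abhd4 (0.0262) and the proteasome subunits Psmb3 (0.0330) and Psmd11 (0.0357). For Ncf1 they were Usf1 (0.0204), Fbxo42 (0.0239) and Inpp1 (0.0245), which were low in BMDM auranofin replicate 1, with Usf1 at 29.1 and 29.6 FPKM in vehicle and 19.5 and 30.3 FPKM with auranofin.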

How the data were processed

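RNA was sequenced from 8 libraries in 4 groups of 2. The authors deposited FPKM values in 2 tables, on mm10 with RefSeq transcripts. The submitters' processing notes name CASAVA, FastQC 0.11.7, Trimmomatic 0.38, HISAT2 2.1.0 and StringTie 1.3.4d. Groups, doses and replicate numbers came from the labels. No counts were given, so depth was estimated from the 1-fragment steps of values under 0.2 FPKM in single-transcript genes, with GENCODE M21 lengths. It covers counting error only.

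Each table was fitted alone with limma 3.58.1 (R 4.3.3; lmFit, eBayes with trend, two-sided) on log2(FPKM + 1). The script was tested on simulated data. Python 3.11.15, pandas 2.3.3, numpy 2.4.6, scipy 1.17.1 and matplotlib 3.10.9 were also used. Cybb and Ncf1 each overlap a lncRNA gene that is in neither table.

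The members and the marker and partner lists were chosen with earlier results of these data known. The text names all members, the list genes called in a table or, with none, the 2 with the largest difference, the 2 highest genes of each marker list, and the 3 most similar genes of members that moved. Clec4f, Stab2, Clec4g, Vsig4 and Timd4 were named after their values were seen. Alternatives changed the pseudocount (0.1), the filter (none, or 5 FPKM), normalization, the variance trend, the replicate block, the call rule and the libraries included.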

Additional observations from a re-analysis of the deposited data

Results flagged for a closer look

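Cyba, the p22phox membrane subunit, lay on opposite sides of vehicle in the AHSC and BMDM tables. In AHSC both auranofin libraries were below both vehicle libraries (log2 fold change -0.055 ± 0.035), and in BMDM both were above both vehicle libraries (0.19 ± 0.11). Each position was common, held by 23.9% of all genes tested in AHSC and by 26.3% in BMDM. Neither value passed the limma test, and whether they differ was not tested, because the tables differ in cells, dose, time and normalization. The AHSC libraries also held macrophage transcripts, and their part in the Cyba value was not tested. The direction held under every alternative run in each table. With each library centred on its median the values were -0.07 and 0.10.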

How the results depend on the processing

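Depth did not limit the members except Sod3 and Nox4 in BMDM. In AHSC, 283 genes were called. The count was 49 without the filter on low values, 129 without the variance trend, 70 with the 1.5-fold rule and 179 to 517 with 1 library left out (517 without vehicle replicate 1, 179 without auranofin replicate 1). Of the members, 2 were called. It was 1 without the filter, without the trend and with the 1.5-fold rule, 4 with a mean of at least 5 FPKM, and 1 to 4 with 1 library left out (4 without vehicle replicate 2, 1 without auranofin replicate 1). Cat stayed called in each of these, with adjusted p from 3.7e-06 to 0.0326. In BMDM, 1 gene was called. It was 0 without the filter and with quantile normalization, 2 without the trend, 14 with the 1.5-fold rule and 1 to 6051 with 1 library left out (3 without vehicle replicate 2, 15 without auranofin replicate 1, 6051 without auranofin replicate 2). Of the members 0 were called, and 0 to 6 with 1 library left out (6 without auranofin replicate 2). The log2 fold changes of BMDM reversed without auranofin replicate 1 to 0.011 for Ncf1, 0.065 for Ncf4, 0.021 for Sod2, -0.067 for Cat, -0.059 for Hvcn1, 0.0057 for Nox1, -0.032 for Ero1l, -0.038 for Pex5 and -0.050 for Atox1. Without auranofin replicate 2 they were -0.63, -0.16, -0.38, 2.19, 1.496, -1.19, 1.03, 0.73 and 0.47 in the same order. Where nothing else is said, the cause was not tested.

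With the replicate block, 282 genes and the same 2 members, Cat and Sod1, were called in AHSC, and 1 gene and 0 members in BMDM, so no member's call changed. Deviations of same-numbered libraries correlated at 0.109 in AHSC and -0.0551 in BMDM across genes, and with 2 pairs the numbers were not taken as pairing.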
